A study of Mus musculus with 2 samples.

Results

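The genes of glycolysis and of the cellular response to low oxygen were followed in RNA of X63/0 (X63-Ag8.653), a mouse plasmacytoma line, that is, a tumour line of antibody-secreting cells. The 33 genes were picked by name and by known function, and each matched exactly 1 of the 43346 features of the deposited gene table. An untreated culture was set beside one kept with cycloleucine at 30 mM for 3 h. This compound blocks the synthesis of S-adenosylmethionine, the cell's methyl donor, by methionine adenosyltransferase, and the series asks how transcripts differ when that donor is lowered. Each group had 1 library of ribosomal RNA-depleted total RNA from the same line, so no difference below has a replicate check and none has a p-value. The series' design text speaks of 3 experiments and 6 samples, and the 2 libraries held here are the ones analysed.

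Glycolysis breaks glucose down to pyruvate in the cytosol. Glucose enters through carriers, is trapped by hexokinase, is committed by phosphofructokinase, and is split and oxidised to pyruvate, which lactate dehydrogenase turns to lactate or which enters the mitochondrion through pyruvate dehydrogenase. Many of these genes are targets of the hypoxia-inducible factor HIF-1, whose alpha subunit is hydroxylated by EGLN prolyl hydroxylases when oxygen is present and then degraded. Rapidly growing lymphoid and plasmacytoma cells are known to use glycolysis in the presence of oxygen. For several of the enzymes, though not all, forms typical of liver, muscle or brain come from separate genes.

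Reads assigned to genes numbered 27127865 without and 31951946 with cycloleucine. Of these 48.3% and 49.4% lay in exons of annotated genes. All 7 plasma cell markers examined were at 1 RPKM or more in either library, with a summed level of 308 RPKM without and 314 RPKM with cycloleucine. RPKM is the number of exon reads per kb of exon, scaled to the gene reads of the library. No T cell, fibroblast or erythroid marker reached 1 RPKM, and of 4 myeloid markers Cd68 alone did. Of 5 B cell markers 2 did, Cd79b and Ms4a1, and the 5 summed to 53.6 and 55.8 RPKM. In bulk RNA a lower share of cells with a transcript and less of it per cell cannot be told apart.

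Several of these genes have near-identical copies elsewhere in the genome, and the sequences show how little separates them. The stretches below come from the coding sequence of Gapdh (glyceraldehyde phosphate dehydrogenase, chromosome 6) at coding bases 316 to 375 and of Eno1 (alpha-enolase, chromosome 4) at coding bases 696 to 755. Each stands beside the same stretch of a processed pseudogene, both from GENCODE M21 transcripts on GRCm38. They are shown because most exon reads of Gapdh and Eno1 were not placed at 1 site, and the base that differs is in capitals.
Gapdh: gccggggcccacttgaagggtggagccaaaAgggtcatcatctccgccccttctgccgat
Gm13394: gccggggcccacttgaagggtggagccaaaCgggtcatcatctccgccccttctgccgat
Eno1: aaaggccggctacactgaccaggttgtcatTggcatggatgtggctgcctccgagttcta
Gm4735: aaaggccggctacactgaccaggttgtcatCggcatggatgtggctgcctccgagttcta
Counted from 1 at the 5′ end of each stretch, the difference is A31C between Gapdh and Gm13394 and T31C between Eno1 and Gm4735. Over the whole alignment Gapdh and Gm13394 differed at 1 of 1000 bases, and Eno1 and Gm4735 at 5 of 1302. Both pseudogenes lie on chromosome 2, Gm13394 at chr2:28933610-28934609 and Gm4735 at chr2:80837141-80838442.

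The genes that carry most of the glycolytic RNA were nearly level between the libraries. Of the 33 genes, 26 passed a filter of at least 1 RPKM in either library and at least 50 exon reads over both, as did 9613 features in all. None of the 26 was 1.5-fold higher or 1.5-fold lower in the cycloleucine library, where 3.03% of all kept features were higher and 2.47% lower by that rule. The median log2 fold change of the 26, computed as log2 of the cycloleucine RPKM plus 0.1 over the untreated RPKM plus 0.1, was 0.0034, beside 0.0035 over all kept features. Deeply counted genes vary less, and the fairer comparison is with 5606 annotated genes of at least 1000 exon reads over both libraries. The middle 95% of those lay between -0.33 and 0.38. All 23 of the genes described here that were this deep lay inside that band, from -0.26 to 0.29.

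**Figure D1:**
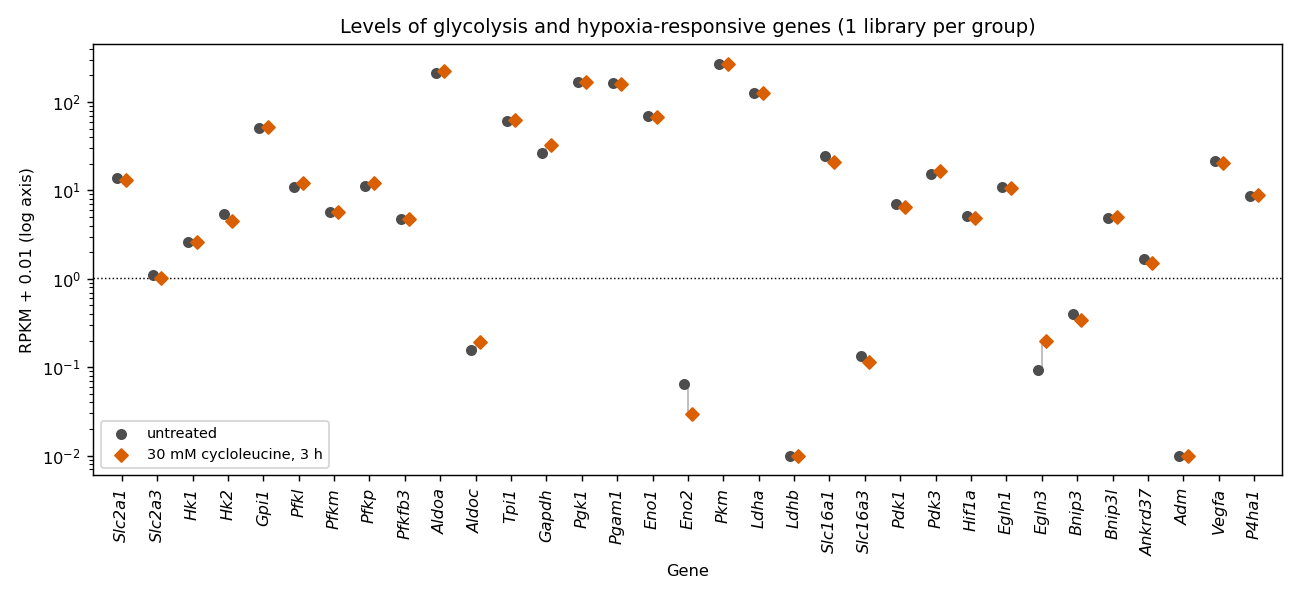
RPKM of each of the 33 genes, with 0.01 added and on a log axis, in the untreated library (circles) and the cycloleucine library (diamonds), 1 library per group and no error bars. The dotted line marks 1 RPKM: 26 genes lie on or above it, Pkm is highest at 272 RPKM in both libraries, and Ldhb and Adm have no exon reads.

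The levels of the steps differed widely per length of exon. Pkm, pyruvate kinase of the muscle and tumour type (chr9:59656368-59679375), had 272 RPKM in each library, from 19147 and 22590 exon reads. It was the highest of the 33 and stood at rank 164 and 173 of the 9613 kept features. Its log2 fold change of 0.0024 had a 95% counting interval of -0.03 to 0.03. Such an interval covers counting error only and not variation between libraries. PCR copies of one molecule were also not told apart by a molecular barcode. Aldoa, the aldolase of muscle and most growing cells, had 211 and 226 RPKM from 15792 and 19880 exon reads. At 0.10 (0.07 to 0.13) from exon reads it was among the most precisely counted differences. Its 3899 and 4631 unique junction reads gave 0.01 (-0.05 to 0.08), an interval that spans 0. Pgk1, phosphoglycerate kinase, had 167 and 170 RPKM. Pgam1, the ubiquitous phosphoglycerate mutase, had 162 and 159 RPKM. Ldha, the lactate-forming dehydrogenase subunit of muscle and tumours, had 126 and 127 RPKM, with a log2 fold change of 0.0044 (-0.03 to 0.04). These 5 genes thus kept one order of levels in both libraries.

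The other early steps stood lower, as did Gapdh and Eno1, described below. Gpi1, glucose phosphate isomerase, had 50.7 and 52.8 RPKM, and Tpi1, triose phosphate isomerase, 60.7 and 63.4 RPKM. The 3 phosphofructokinase genes summed to 27.9 and 30.03 RPKM, and the hexokinases with the ADP-dependent glucokinase Adpgk to 14.3 and 12.1 RPKM. The RPKM of the 15 genes that encode glycolytic enzymes from hexokinase to pyruvate kinase summed to 1056 without and 1081 with cycloleucine.

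Along the pathway the small differences differed in sign. Of the genes of glucose entry and trapping, Hk2 lay below 0 by more than its counting error in exon reads, though not in junction reads. Hk2, the inducible hexokinase that sits on mitochondria (chr6:82725025-82774454), had 5.35 RPKM in the untreated and 4.46 RPKM in the cycloleucine library, from 867 and 851 exon reads. Its log2 fold change was -0.26 (-0.40 to -0.12), the lowest of the 26. Its 119 and 139 unique junction reads gave -0.01 (-0.37 to 0.35), an interval that spans 0. Hk1, the ubiquitous hexokinase, had 2.63 and 2.61 RPKM, and its value of -0.01 had an interval of -0.17 to 0.15. Slc2a1, the glucose carrier GLUT1, had 13.7 and 13.1 RPKM, with a value of -0.07 (-0.19 to 0.05) from all exon reads and 0.06 (-0.12 to 0.23) from unique ones. Its neuronal relative Slc2a3, or GLUT3, had 1.09 and 1.02 RPKM and a value of -0.09 (-0.37 to 0.18). Among these 4 only the exon-read interval of Hk2 lay wholly on one side of 0.

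From exon reads the middle steps lay slightly above 0. Pfkl, the liver type of phosphofructokinase, had 11.04 and 12.1 RPKM, a log2 fold change of 0.13 (0.03 to 0.24). Pfkp, the platelet type, had 11.2 and 12.2 RPKM and a value of 0.13 (0.06 to 0.20). Pfkm, the muscle type, had 5.67 and 5.74 RPKM and a value of 0.02 (-0.17 to 0.20). The values of Gpi1, 0.06 (0.0095 to 0.11), and of Tpi1, 0.06 (-0.0012 to 0.13), were of the same sign. Unique junction reads did not give this sign throughout: Tpi1 was at 0.22 (0.10 to 0.33) and Pfkp at 0.26 (0.15 to 0.38), Pfkl at 0.02 (-0.14 to 0.19), Pfkm at -0.24 (-0.53 to 0.04) and Gpi1 at -0.10 (-0.20 to -0.0073). Pfkfb3, which makes fructose 2,6-bisphosphate and so activates phosphofructokinase, was at 4.7 and 4.8 RPKM, with a value of 0.03 (-0.10 to 0.15). Pfkp overlaps Pitrm1 and Pfkm overlaps Senp1, both on the opposite strand and both read in this line, and reads of such pairs cannot be told apart unless the counting used strand.

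The value of the lactate-forming gene at the end of the pathway depended on the reads used. Ldha was level from all exon reads, as given above, at 0.08 (0.04 to 0.13) from unique ones, and below 0 from junction reads, at -0.15 (-0.25 to -0.06) from unique and -0.22 (-0.30 to -0.14) from all of them. Slc16a1, the monocarboxylate carrier MCT1 that moves lactate across the membrane (chr3:104638668-104658462), had 24.8 RPKM in the untreated and 21.2 RPKM in the cycloleucine library. Its 2974 and 3002 exon reads gave a log2 fold change of -0.22 (-0.30 to -0.15), and 99.7% or more of them were uniquely placed. Its 189 and 199 junction reads gave -0.16 (-0.45 to 0.13). Pdk1 and Pdk3 encode kinases that switch off pyruvate dehydrogenase. Pdk1 had 6.93 and 6.57 RPKM and a value of -0.08 (-0.18 to 0.03), and Pdk3 had 15.4 and 16.7 RPKM and a value of 0.12 (0.00055 to 0.23). From unique junction reads Pdk1 was below 0, at -0.33 (-0.58 to -0.09), and Pdk3 was at 0.09 (-0.11 to 0.29).

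Over all 26 genes the counting interval from exon reads lay above 0 for 6, Gpi1, Pfkl, Pfkp, Aldoa, Gapdh and Pdk3. Of all kept features 22.9% had such an interval. The exon-read interval lay below 0 for 3, Hk2, Slc16a1 and Vegfa, where 21% of all kept features did. Such an interval compares these 2 libraries, not the conditions.

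**Figure D2:**
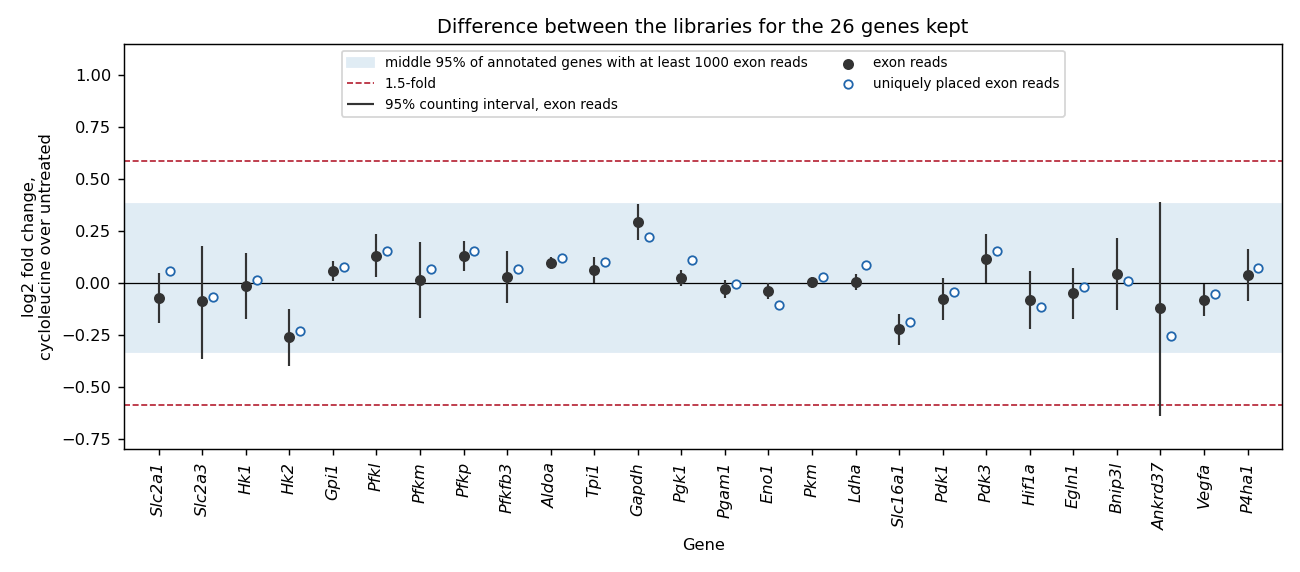
Log2 fold change of the cycloleucine over the untreated library for the 26 kept genes in pathway order, from all exon reads (filled, with the 95% counting interval) and from uniquely placed exon reads (open). All filled points lie between -0.26 (Hk2) and 0.29 (Gapdh), inside the dashed 1.5-fold lines and inside the band that holds the middle 95% of annotated genes with at least 1000 exon reads.

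From exon reads Gapdh had the highest value of the 26. Its 26.4 RPKM in the untreated and 32.4 RPKM in the cycloleucine library came from 1839 and 2658 exon reads, a log2 fold change of 0.29 (0.21 to 0.38). Only 10.5% and 9.78% of these reads were uniquely placed, 194 and 260 reads, and from them the value was 0.22 (-0.05 to 0.50). A search of GENCODE M21 transcripts found 180 other genes that share at least 200 bases at 90% identity or more with the Gapdh transcript, 171 of them typed as pseudogenes. Of these, 160 are in the deposited table, with 915 and 1107 gene reads. With those added the value was 0.21 (0.14 to 0.29). The added reads include ones placed uniquely at a copy, such as 102 of 165 untreated gene reads of Vmn2r60. The sum is therefore no check on reads that match many sites. Gapdh thus stood below its neighbours Tpi1, Pgk1 and Aldoa in the table, and its level in RPKM carries the uncertainty of reads that match many sites. The share of reads lost to other sites was not tested.

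Low uniqueness was concentrated in a few genes. Of the 26, 13 had over 90% of their exon reads uniquely placed in both libraries and 6 had under 50% in the untreated library: Slc2a1, Gapdh, Pgk1, Pgam1, Eno1 and Hif1a. The same search found 0 copies for Slc2a1 and 0 for Hif1a, and the cause of their low uniqueness was not tested. For Pgk1 the uniquely placed share was 4.21% and 4.37%, or 428 and 532 reads. Its copies Pgk1-rs7 and Gm5537 matched 1255 and 1252 aligned bases at 100% identity. From unique reads Pgk1 was at 0.11 (-0.07 to 0.30), and from all exon reads at 0.03 (-0.01 to 0.06). Pgam1 had 32.5% and 32.3% of its exon reads uniquely placed and not 1 uniquely placed read across an exon-exon junction, although 749 and 810 junction reads were assigned to it in all. Its copy Pgam1-ps2 matched 765 aligned bases at 100% identity.

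Reads of Eno1 were shared with its copies too. Eno1 had 69.9 and 68.2 RPKM, of which 22.6% and 21.0% were uniquely placed reads. Its log2 fold change was -0.04 (-0.07 to 0.0021) from all exon reads and -0.11 (-0.19 to -0.02) from unique ones. Unique junction reads of Eno1 were 410 without and 310 with cycloleucine, a value of -0.64 (-0.86 to -0.42), whereas all its junction reads, 2799 and 3170, gave -0.06 (-0.14 to 0.01). Eno1b, an Eno1-like gene that shares 1736 bases at 99.5% identity, was listed at 365 and 379 RPKM, and the pseudogene Gm4735 shown above at 144 and 134 RPKM. Eno1b had 9 and 17 junction reads in all, of which 0 were uniquely placed. Gm4735 is listed as a single stretch of 1302 bases, so it has no junction for a read to cross. With the reads of Eno1b and Gm4735 added to those of Eno1, 33021 and 38974 in all, the log2 ratio was 0.0030 (-0.02 to 0.02).

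**Figure D3:**
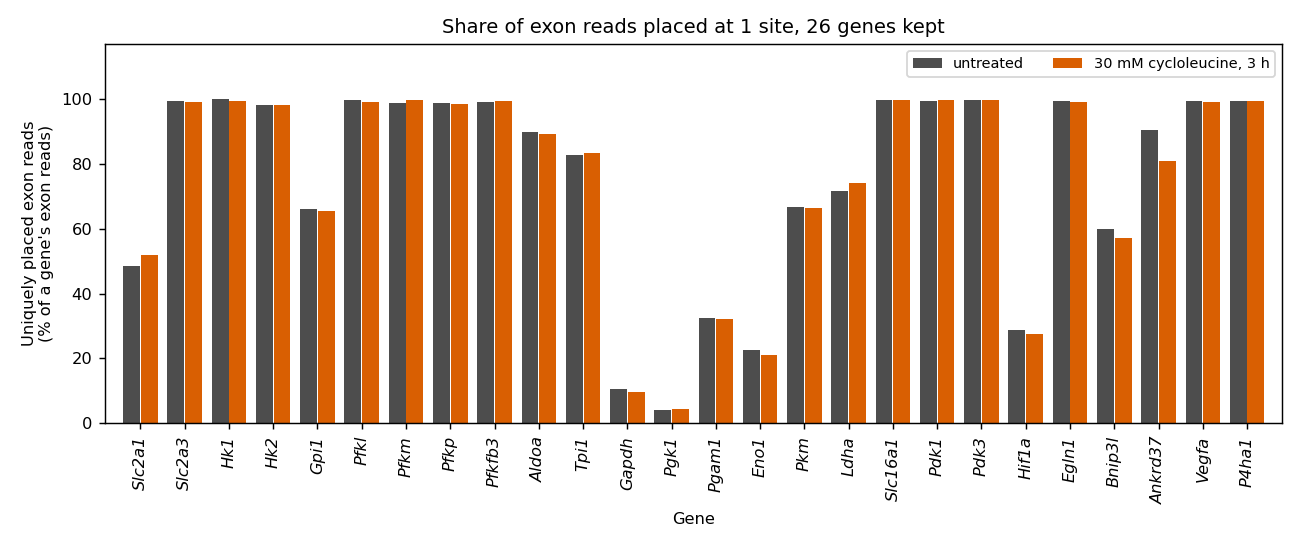
Percent of exon reads placed at 1 site for the 26 kept genes in the untreated (dark) and cycloleucine (orange) libraries. Pgk1 (4.21% and 4.37%) and Gapdh (10.5% and 9.78%) are lowest, and Ankrd37, with few reads, differs most between the libraries (90.5% and 80.9%).

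Several steps used almost 1 isozyme alone. Of 17 steps or small families with more than 1 gene in the table, 8 had a single gene with over 90% of the summed RPKM in both libraries. Aldoa held 99.9% of aldolase in both, while the brain form Aldoc had 13 and 19 exon reads. Ldha held 99.9% and 99.98% of lactate dehydrogenase. Ldhb, the heart subunit, had 0 exon reads in both libraries, which allows up to 0.0704 RPKM in the untreated and 0.0598 RPKM in the cycloleucine library (3 reads per library, counting error only). Slc16a1 held 99.5% and 99.4% of the monocarboxylate carriers, and the hypoxia-inducible lactate exporter Slc16a3, or MCT4, had 18 exon reads in each library. Eno2, the neuronal enolase, had 7 and 3.

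Other steps were shared between genes. Phosphofructokinase was split into 39.6% Pfkl, 20.4% Pfkm and 40.03% Pfkp in the untreated library, and 40.3%, 19.1% and 40.6% in the cycloleucine library. The untreated intervals of Pfkl (38.01% to 41.2%) and Pfkp (38.6% to 41.5%) overlapped, so these neighbours cannot be ordered by RPKM. Uniquely placed junction reads put Pfkp first, with 57.8% without and 62.9% with cycloleucine, beside 30.6% and 28.2% for Pfkl. RPKM divides by exon length, 9395 bases for Pfkp and 4395 for Pfkl, and junction reads were not scaled by length. The cause of the gap was not tested. Among genes that phosphorylate glucose, Adpgk held 43.5%, Hk2 37.6% and Hk1 18.5% of the untreated RPKM. Adpgk, which uses ADP in place of ATP and overlaps Bbs4 on the opposite strand, also had a lower level in the cycloleucine library, 6.21 against 4.94 RPKM, a log2 fold change of -0.32 (-0.53 to -0.13). Its junction reads, 42 and 62, gave 0.33 (-0.26 to 0.93), so its direction is uncertain. By uniquely placed junction reads, which are not scaled by length, Hk1 held 50.8% and 45.6% and Adpgk 12.8% and 16.5%. Slc2a1 held 56.7% and 59.4% of the RPKM of glucose carriers, followed by Slc2a6, a carrier of leukocytes, with 30.2% and 26.8%. From unique reads Slc2a6 held 42.7% (40.2% to 45.2%) of the untreated level and Slc2a1 39.1% (36.6% to 41.7%), intervals that overlap, so these cannot be ordered there. Slc2a6 had 7.32 and 5.89 RPKM, a value of -0.31 (-0.48 to -0.15).

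Muscle-type isozymes were read at both steps after phosphoglycerate kinase. Pgam2, known as the muscle phosphoglycerate mutase, had 204 RPKM in the untreated and 215 RPKM in the cycloleucine library, from 4642 and 5781 exon reads. Unlike Pgam1, 99.6% and 99.5% of its exon reads were uniquely placed, with 718 and 902 unique junction reads. It held 55.5% and 57.3% of the step's RPKM, and 78.9% and 80.3% from unique reads, in which Pgam1 is undercounted. Eno3, the muscle enolase, had 21.1 and 20.8 RPKM, with 99.4% and 99.7% of its reads unique. Its share of enolase RPKM was 23.2% and 23.3%, with Eno1b not counted, and 4.63% and 4.44% with Eno1b added. From unique reads, in which Eno1 is undercounted, it was 56.8% and 58.9%. Neither Pgam2, at 0.08 (0.02 to 0.14), nor Eno3, at -0.03 (-0.15 to 0.10), was past 1.5-fold.

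Pdk3 led the pyruvate dehydrogenase kinases with 67.9% and 70.9% of their RPKM, and Pdk1 followed with 30.5% and 27.8%. The untreated interval of Pdk3 ran from 66.2% to 69.7% and the cycloleucine one from 69.4% to 72.4%, so they overlapped. Pfkfb3 held 64.1% and 63.4% of phosphofructokinase 2, and Pfkfb1 17.5% and 21.6%. Pfkfb2 held 14.0% and 12.4%, but only 24.6% and 34.6% of its exon reads were unique. Pfkfb1, the liver form, had 1.28 and 1.64 RPKM from 140 and 210 exon reads, a log2 fold change of 0.33 (0.03 to 0.67). Pfkfb2, the heart form, had 1.02 and 0.94 RPKM, a value of -0.11 (-0.43 to 0.19).

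**Figure D4:**
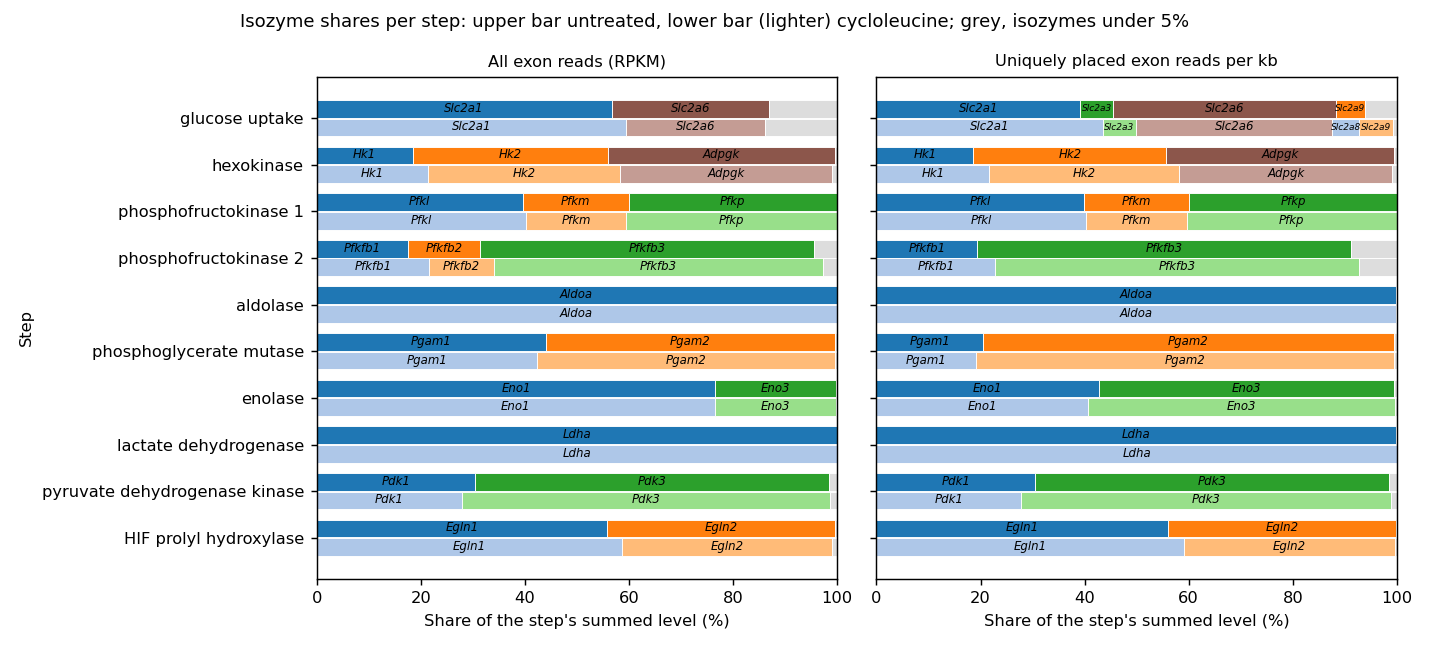
Share of each gene in the summed level of 10 steps, from RPKM (left) and from uniquely placed exon reads per kb (right), with the untreated library above the cycloleucine library in each pair. The split of phosphofructokinase hardly moves, while Pgam2 (55.5% to 78.9% in the untreated library) and Eno3 (23.2% to 56.8%) take larger shares when reads that match several sites are left out.

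Of the oxygen-sensing genes, Hif1a, the alpha subunit of HIF-1, had 5.1 RPKM in the untreated and 4.82 RPKM in the cycloleucine library, from 816 and 908 exon reads. Its log2 fold change was -0.08 (-0.22 to 0.06), and 28.9% and 27.6% of its reads were unique. It held 99.4% and 99.04% of the RPKM of the alpha subunit genes, and Epas1, which encodes HIF-2 alpha, had 4 exon reads in each library. Egln1, the main prolyl hydroxylase that marks HIF alpha for degradation, had 10.9 and 10.6 RPKM, a value of -0.05 (-0.17 to 0.07). Egln3, which HIF itself induces in many cells, had 6 and 16 exon reads. Its value of 0.65 had an interval of -0.25 to 2.82, too wide to give a direction. Egln2 had 8.56 and 7.22 RPKM, a value of -0.24 (-0.40 to -0.09), and held 43.7% and 40.2% of the RPKM of the prolyl hydroxylases beside 55.9% and 58.8% for Egln1. The 85 and 59 unique junction reads of Egln2 gave -0.76 (-1.27 to -0.27), past 1.5-fold lower.

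HIF targets outside glycolysis were also level or barely read. Vegfa, the vascular growth factor, was the highest of them, with 21.6 RPKM in the untreated and 20.4 RPKM in the cycloleucine library from 2515 and 2801 exon reads. Its log2 fold change was -0.08 (-0.16 to -0.0025), and from unique reads it was -0.05 (-0.13 to 0.03). P4ha1, a collagen prolyl hydroxylase subunit, had 8.54 and 8.76 RPKM and a value of 0.04 (-0.09 to 0.16). Its isozyme P4ha2 had 1.8 and 1.71 RPKM and a value of -0.07 (-0.30 to 0.15). Bnip3l, a mitophagy receptor also called NIX, had 4.8 and 4.95 RPKM and a value of 0.04 (-0.13 to 0.22). Its unique junction reads were 29 and 57, a value of 0.74 (0.07 to 1.44), so spliced and total exon reads differed here, at low counts. Ankrd37, a small HIF-induced ankyrin repeat gene, had 1.66 and 1.52 RPKM from 63 and 68 exon reads, a value of -0.12 (-0.64 to 0.39). It overlaps Ufsp2 and Lrp2bp on the opposite strand. Bnip3, the relative of Bnip3l, had 24 exon reads in each library, and Adm, the vasodilator peptide adrenomedullin, had 0 in both. The 0 of Adm allows up to 0.0683 and 0.058 RPKM.

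Intron reads, which come mostly from unspliced RNA, were fewer and gave wide intervals. Of the 26 genes, the interval of the intron log2 ratio lay above 0 for 1, Hk1, and below 0 for 2, Slc2a1 and Eno1. Of 9346 kept features with an intron read, 15.3% had such an interval above and 11.7% below 0, so these counts are no higher than the background. Pkm had 629 and 667 intron reads, a log2 ratio per gene reads of -0.15 (-0.31 to 0.01), and Vegfa had 494 and 606, a ratio of 0.06 (-0.12 to 0.23). Slc2a1 had 197 and 186, a ratio of -0.32 (-0.62 to -0.02), beside an exon value of -0.07. Hk1 had a ratio of 0.20 (0.00094 to 0.40) and Eno1 of -0.25 (-0.46 to -0.03). Hk2 had 172 and 166, a ratio of -0.29 (-0.60 to 0.03), close to its exon value. The intron share of gene reads ran from 0.60% and 0.67% in Aldoa to 53.8% and 55.2% in Slc2a3 among the 26 genes.

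A sequence feature of these genes is the core of the hypoxia response element, the letters ACGTG that HIF-1 binds. It was searched on both strands in windows from 250 bases before to 50 bases after RefSeq starts on GRCm38.p6. A window was found for 31 of the 33 genes, and 22 of them, 71.0%, held the letters. The share was 21.8% over 27025 genes with a window and 31.3% over 6864 kept genes. A gene can have several windows, and with genes of 1 window alone the shares were 66.7% of 21 and 28.3% of 5496 kept genes. The letters overlap those of the E-box CACGTG, which 6 of the 31 held, 19.4%, against 12.7% of kept genes. Many of these genes were picked as known HIF targets, so the share describes the choice and is no finding.
The stretches just before the start of an abundant gene with several matches, of Pgk1 and of a gene hardly read in this line are shown for comparison, with ACGTG or its reverse complement in capitals.
Ldha: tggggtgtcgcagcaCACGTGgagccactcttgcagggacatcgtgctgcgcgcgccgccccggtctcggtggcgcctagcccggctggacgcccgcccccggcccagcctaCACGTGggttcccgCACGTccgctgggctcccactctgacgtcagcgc
Pgk1: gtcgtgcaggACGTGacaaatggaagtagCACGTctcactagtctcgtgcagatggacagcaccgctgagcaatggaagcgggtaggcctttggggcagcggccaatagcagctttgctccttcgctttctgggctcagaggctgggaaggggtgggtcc
Slc16a3: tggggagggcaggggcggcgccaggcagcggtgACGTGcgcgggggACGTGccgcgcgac
The stretch of Ldha is chr7:46845644-46845803, that of Pgk1 chrX:106186940-106187099 and that of Slc16a3 chr11:120949007-120949066, all on the plus strand and each ending at the base before the start. Ldha and Pgk1 had 126 and 167 RPKM in the untreated library, and Slc16a3, with the same letters, had 18 exon reads in each library. A match in a window is not a bound site.

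Other genes of these pathways, from lists written with earlier results of these data known, had few large differences too. Of 120 such genes 118 were in the table and 69 were kept, with a median log2 fold change of -0.0018, 34 above and 35 below 0. Siah1a alone was past 1.5-fold by RPKM, 1 of 69 higher and 0 lower, against 3.03% and 2.47% of all kept features. Counting intervals lay above 0 for 20 of the 69 and below 0 for 13, against 22.9% and 21% of all kept features. Siah1a encodes a ubiquitin ligase that acts on prolyl hydroxylases, and had 1.66 and 2.75 RPKM from 95 and 185 exon reads, a value of 0.69 (0.36 to 1.098). Among regulators of HIF, Hif1an, an asparaginyl hydroxylase that blocks HIF activity, had 4.26 and 5.18 RPKM, a value of 0.28 (0.15 to 0.42). Arnt, the HIF beta subunit, had 3.34 and 2.92 RPKM, a value of -0.19 (-0.34 to -0.05). Vhl, which recognises hydroxylated HIF alpha, had 4.85 and 4.82 RPKM, a value of -0.0063 (-0.20 to 0.19). Of 42 further HIF targets 22 were kept, with 13 above and 9 below 0, a median of 0.08, and none past 1.5-fold by RPKM. Their exon-read intervals lay above 0 for 9 of the 22 and below 0 for 4, against 22.9% and 21% of all kept features. Of 11 genes of pyruvate import and pyruvate dehydrogenase, all kept, 7 lay above 0 and the median was 0.06. Of 20 genes on branches of glycolysis such as the pentose phosphate pathway, 15 were kept, 5 above and 10 below 0, with a median of -0.03.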

How the data were processed

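Total RNA was depleted of ribosomal RNA, and 1 library per group was sequenced on an Ion Proton, per the labels. The authors deposited read counts per gene (all and uniquely placed, for whole genes, for exons, for introns and for splice junctions) and RPKM values, per the file headers. RPKM times exon length and total gene reads returned the exon reads in 43346 of 43346 features of each library, within 0.02 reads plus a share of 0.0001. For 13700 features without a transcript it returned gene reads. The submitters' processing notes name mm10 as build. Not given in the sources used here: aligner, annotation, use of strand and the placing of reads that match many sites, which affects Gapdh, Pgk1, Pgam1 and Eno1 most. The table had 0 columns of other libraries.

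Log2 fold changes used deposited RPKM plus 0.1 among features with at least 1 RPKM in either library and 50 exon reads over both. The 95% counting intervals are exact (Clopper-Pearson), computed on how a gene's reads divide between the libraries, and those of isozyme shares a normal approximation from counts. The size rule was 1.5-fold. It was run on simulated counts with counting error alone and with planted changes larger than 1.5-fold. Variation between libraries was not part of that simulation, so it was not tested. A count of 0 was read as up to 3 counts. Copies were found with blastn 2.17.0 from 1 protein-coding transcript per gene. Python 3.11.15, scipy 1.17.1 and, for the trimmed mean of M values, edgeR 4.0.16 were used. All 33 genes were named, and other genes only if past 1.5-fold, with at least 5% of a step, or as HIF regulators (Arnt, Vhl, Egln2, Hif1an). Epas1, Eno1b, the pseudogenes and the genes under other observations are named outside this rule, after their values were seen. The genes and lists were chosen with earlier results of these data known.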

Additional observations from a re-analysis of the deposited data

How the results depend on the processing

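No paired analysis was possible because there was a single library in either group. No gene was past 1.5-fold under a pseudocount of 1, at least 5 RPKM and 100 reads, unique exon reads, either rescaling, or the higher and lower fold thresholds tried. With no filter 1 was higher, Egln3 at 6 and 16 reads, where 6.36% of all features were higher. With unique junction reads 1 was higher (Bnip3l) and 1 lower (Eno1) of 22, where 4.85% of all features were higher and 4.2% lower. The median was 0.043 with unique exon reads, where that of all features was 0.038, and from -0.03 to 0.01 in the other settings. Values of single genes left their counting interval in 21 of 133 alternatives, 14 of them with unique junction reads, and adding the reads of copies was chosen after seeing the data, as was adding Eno1b to the enolase step. A single gene held over 90% of a step at 8 of 17 steps with unique exon reads and at 7 with unique junction reads. The cause was not tested. Depth limits Egln3, Aldoc, Eno2, Bnip3 and Slc16a3, each under 50 reads over both libraries.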

Other observations

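Some genes of the wider lists, chosen after their values were seen, lay short of 1.5-fold by RPKM, with exon-read intervals away from 0. Narf, listed here among HIF targets, had 1.83 RPKM without and 2.6 RPKM with cycloleucine and a log2 fold change of 0.48 (0.27 to 0.74). Ddit4, which restrains mTORC1 and responds to hypoxia and to other stress, had 37.9 and 51.9 RPKM, a value of 0.45 (0.37 to 0.54). Bhlhe41, a circadian and hypoxia-responsive repressor, had 7.85 and 10.3 RPKM, a value of 0.39 (0.29 to 0.49), and Cxcr4, a chemokine receptor, 51.4 and 62.8 RPKM, a value of 0.29 (0.22 to 0.36). On the lower side Rpia, of the pentose phosphate pathway, had 10.9 and 8.67 RPKM, a value of -0.32 (-0.43 to -0.22), and Tfrc, the transferrin receptor, 21.1 and 18.02 RPKM, a value of -0.23 (-0.30 to -0.16). By unique junction reads Narf was at 1.05 (0.46 to 1.66) and Ddit4 at 0.65 (0.34 to 0.97), both past 1.5-fold. Bhlhe41 was at 0.54 (0.16 to 0.93) and Cxcr4 at 0.08 (-0.30 to 0.46) by these reads. Rpia was at -0.32 (-0.51 to -0.13) and Tfrc at -0.17 (-0.31 to -0.04). Kdm3a, a further HIF target, was at 0.27 (0.14 to 0.40) from exon reads and 0.80 (0.56 to 1.04) from unique junction reads.

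Mpc1, a subunit of the mitochondrial pyruvate carrier, was at 0.40 (0.19 to 0.63) from all exon reads and at -0.09 (-0.57 to 0.39) from its 73 and 79 unique ones, intervals that overlap. For Cited2, which competes with HIF-1 alpha for its coactivator, the value was 0.20 (0.16 to 0.24) from all exon reads and 0.45 (0.40 to 0.49) from unique ones. The cause of that gap was not tested.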
